A study of Caenorhabditis elegans with 6 samples.

Results

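The H3K9me2 and H3K9me3 libraries of wild-type (WT) L3 body wall muscle were set directly against each other, window by window and with no control subtracted. These were 2 of the 6 libraries of the series, and the comparison covered 99471 nuclear windows of about 1 kb, out of 100293 in the table, and 10013 windows of 10 kb made by summing 10 neighbouring windows. Windows of the mitochondrial genome (14) and nuclear windows without a read in any library (808) were left out. Coordinates are those of the ce10 build. The difference used throughout is log2 of the scaled H3K9me2 reads minus log2 of the scaled H3K9me3 reads, after each library was scaled to the average total of all 6 libraries and 8 was added. A positive difference therefore means relatively more H3K9me2 reads and a negative one relatively more H3K9me3 reads.

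The marks were profiled by ChIC-seq, in which an antibody on a histone mark tethers protein A fused to micrococcal nuclease (MNase), and the DNA cut out nearby is sequenced. The cells were fixed with ethanol and sorted from L3 larvae, the third larval stage, of *Caenorhabditis elegans*. The WT libraries were of strain N2 (Bristol) and comprised H3K9me2 (antibody MABI0317), H3K9me3 (antibody MABI0318), H3K27ac and an MNase control that received no antibody. The mutant carried *met-2(n4256) III* and had an H3K27ac library and an MNase control of its own, used here only to describe the windows. Every group had 1 library. Per the study's methods, muscle cells were selected by a red fluorescent protein driven by *myo-3*, and for ChIC-seq the protocol names a Hoechst stain as the gate for fixed cells. The labels give plain N2 for WT and name no reporter, so which cells the gate kept rests on the tissue label, and the identity of the cells was not checked against marker genes, since windows were not assigned to genes. With nothing to measure the spread between replicates, no difference below carries a p-value, and each is a difference between libraries as well as between marks.

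Methylation of lysine 9 of histone H3 marks heterochromatin, the compact and mostly silent part of the genome. In *C. elegans* the enzyme MET-2 places the mono- and dimethyl forms, and SET-25 adds the trimethyl form. The autosomes of the worm lack a single centromere, and their arms, which are rich in repeats and carry most of this methylation, contrast with centres that hold most housekeeping genes. Chromosome IV also carries most of the worm's piRNA genes, the source of small RNAs that guard the germline genome. The direct comparison asks where along these chromosomes the dimethyl and trimethyl marks part from each other in a differentiated tissue.

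The H3K9me2 library held 23850236 reads and the H3K9me3 library 28519008. A 1 kb window had a median of 201 H3K9me2 reads and 264 H3K9me3 reads, and a 10 kb window 2282 and 2769. At this depth counting error, with each read taken as independent, made up 5.31% of the variance of the log2 ratio at 1 kb and 2.11% at 10 kb. The study's protocol amplified fragments by in vitro transcription, and reads copied from the same fragment would not be independent, so these shares may be too low. The other libraries held from 2475550 reads (*met-2* control) to 23481832 (*met-2* H3K27ac). H3K9me2 reads were the more unevenly spread, since the 1% of windows with the most reads held 6.62% of H3K9me2 reads and 4.37% of H3K9me3 reads. The SD of the log2 level over 1 kb windows was 0.93 for H3K9me2 and 0.73 for H3K9me3.

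The levels of both marks rose and fell together in part, much as they did with the other libraries. They correlated across windows with a Spearman rho of 0.529 at 1 kb (n = 99471) and 0.481 at 10 kb (n = 10013). H3K9me3 correlated more closely with H3K27ac (0.624 in WT and 0.639 in *met-2*, 1 kb) than with H3K9me2, and H3K9me2 correlated with WT H3K27ac at 0.513 and with the WT control at 0.514. All libraries share cutting preference and mappability, and neighbouring windows are not independent. Without the windows in the lowest and highest decile of WT control reads, rho was 0.430 and 0.387. A total of 11858 windows (11.9%) lay in the top quartile of both marks and 13698 (13.8%) in the bottom quartile of both. Windows in the top quartile of H3K9me2 and the bottom quartile of H3K9me3 numbered 2026 (2.04%), with median scaled reads of 254 and 103, and windows of the opposite kind numbered 1277 (1.28%), with medians of 84.0 and 226. Opposite extremes were thus present but scarce.

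The difference had a median of -0.15 at 1 kb (95% interval of the median -0.15 to -0.14, windows taken as independent) and an SD of 0.70. It ranged from -3.07 to 4.58. The H3K9me2 side, above 0.5, held 16788 windows, or 16.9% of all windows. The H3K9me3 side, below -0.5, held 28655 windows, or 28.8%. The exact 95% binomial interval of the read ratio lay above equality in 26788 windows and below it in 42179. Most local differences thus exceeded counting error between these libraries, if reads are taken as independent. At 10 kb the median was -0.03 and the SD 0.37. The H3K9me2 side then held 783 windows (7.82%) and the H3K9me3 side 844 (8.43%). The zero point is set by the scaling. TMM scaling, which leaves out extreme windows when libraries are matched, raised the median by 0.12 at 1 kb and by 0.13 at 10 kb. The share of called windows on the H3K9me2 side rose with it from 36.9% to 48.8% at 1 kb and from 48.1% to 74.9% at 10 kb. The balance between the sides therefore has no fixed value here, and medians of several segments are also given below relative to the median of all windows. TMM scaling changed such relative medians by at most 0.0030 for any of the 18 segments of the chromosomes. It rescales each library by 1 factor, so this follows from the measure and does not test the regional pattern. Counts of windows on either side, or above and below 0, use the reported scaling unless TMM is named, and they move with it.

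**Figure D1:**
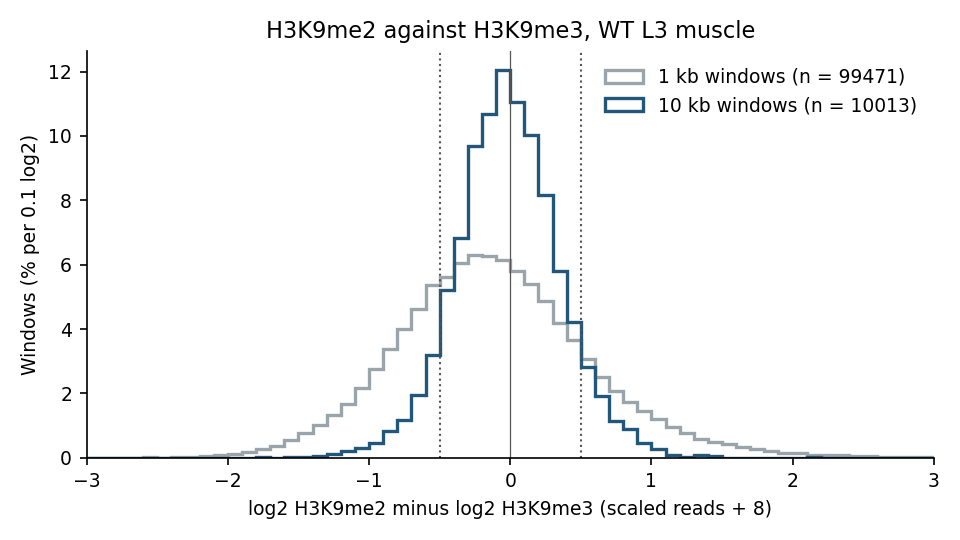
Share of windows (y axis, % per 0.1 log2) by the H3K9me2 minus H3K9me3 difference (x axis, log2 of scaled reads + 8), in 1 kb windows (grey, n = 99471) and 10 kb windows (blue, n = 10013). Dotted lines mark -0.5 and 0.5, and the 1 kb distribution is the wider and lies further to the left, with a median of -0.15 against -0.03.

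The right arms of chromosomes IV and V stood apart on the H3K9me3 side. Their median differences at 1 kb were -0.39 and -0.30, that is 0.24 and 0.15 below the median of all windows. On IV right arm the median scaled level was 114 for H3K9me2 and 152 for H3K9me3, and on V right arm 136 and 165. At 10 kb, 173 of 532 windows of IV right arm (32.5%) and 165 of 708 windows of V right arm (23.3%) were on the H3K9me3 side, against 8.43% of all windows. Both arms together held 12.4% of 10 kb windows and 338 of the 844 windows on the H3K9me3 side (40.0%), but 71 of the 783 on the H3K9me2 side (9.07%). Under TMM scaling they held 227 of 452 windows on the H3K9me3 side (50.2%).

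The control reads also differed on these arms. The median scaled WT control was 94.5 on IV right arm and 108 on V right arm, against 124 over all windows. Within deciles of WT control reads, IV right arm lay below the other autosomal arms in 9 of 10 deciles, by -0.16 on average against -0.23 without the split. This gap was not uniform (± gives the interval across windows). It was -0.321 ± 0.081 and -0.358 ± 0.068 in deciles 1 and 2, where control reads were fewest. In deciles 7 to 10 it was -0.102 ± 0.105, -0.008 ± 0.103, -0.073 ± 0.105 and 0.030 ± 0.077. V right arm lay below the others in 10 of 10 deciles, by -0.12 against -0.14, with the smallest gap in decile 1 (-0.014 ± 0.087). Within deciles of the difference between the *met-2* and WT controls, both arms lay lower in 10 of 10 deciles, by -0.19 and -0.12. Here too the gaps varied. For IV right arm they were -0.069 ± 0.074, -0.077 ± 0.086 and -0.017 ± 0.105 in deciles 1 to 3 and -0.340 ± 0.082 in decile 10. For V right arm they were smallest in deciles 9 and 10, at -0.060 ± 0.064 and -0.045 ± 0.078. WT H3K27ac was low as well, at a median of 114 on IV right arm and 103 on V right arm against 162 over all windows. Within its deciles V right arm lay lower in 10 of 10, by -0.11, but IV right arm in only 8 of 10, by -0.19 on average, and in the decile with the most H3K27ac it stood at 0.12 ± 0.11.

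Within IV right arm, the stretch from 14 to 17 Mb, which holds the larger of the piRNA gene clusters, had a median difference of -0.58, and 54.5% of its 2975 windows were below -0.5. At 10 kb 145 of its 300 windows (48.3%) were on the H3K9me3 side and 6 on the H3K9me2 side. Its median scaled H3K9me2 level was 96.8 against 143 over all windows, whereas its H3K9me3 level of 152 was near the 157 of all windows. Low reads there were not particular to H3K9me2. WT H3K27ac had a median of 94.5 against 162, the WT control 79.0 against 124 and the *met-2* control 117 against 144, so H3K9me3 was the exception among the libraries named here. Their part in this difference was not tested. The smaller piRNA cluster, from 5 to 7 Mb, had a median difference of -0.29, with 35 of 200 windows of 10 kb on the H3K9me3 side (17.5%) and 10 on the other.

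Among the arms, the opposite lean was strongest on the left arm of I and, at 10 kb, also on the right arm of II. I left arm had the highest median of all autosomal arms and centres, -0.04, or 0.11 above all windows. At 10 kb 60 of its 375 windows (16.0%) were on the H3K9me2 side, against 7.82% of all windows, and 12 on the H3K9me3 side. At 1 kb the shares of its windows on these sides were 22.4% and 24.2%. II right arm had 54 of 341 windows (15.8%) on the H3K9me2 side and 16 on the other at 10 kb. At 1 kb it did not stand out, since its median was 0.05 above all windows, below the centres of II (0.09) and III (0.08), with 21.4% of windows on the H3K9me2 side and 27.6% on the H3K9me3 side. At 10 kb III right arm (12.5% on the H3K9me2 side and 4.95% on the other), III left arm (11.4% and 6.84%) and I right arm (11.0% and 6.32%) leaned the same way. The median *met-2* minus WT control difference was -0.07 on I left arm and 0 on II right arm, against 0.17 over all windows. Its part in the lean was not tested. The arms thus did not share 1 direction. Over all autosomes the arm windows of 1 kb had a median of -0.18 and the centres of -0.09, a difference of -0.09 ± 0.01 (interval across windows). At 1 kb 9 of the 10 arms lay below their own centre, I left arm being the exception. At 10 kb the right arms of II (0.104 against 0.058) and III (0.041 against 0.034) also lay above their centres. Without IV right arm the arm minus centre difference at 1 kb was -0.07. Within deciles of WT control reads it was -0.07 on average and below 0 in 10 of 10 deciles. Chromosome X, at a median of -0.16, lay 0.01 below the autosomes, and its left, middle and right parts ranged from -0.17 to -0.14. Of the 12 chromosome ends, taken as the outermost 200 kb, 7 had a median below that of all windows, and the medians ran from -0.27 at the left end of V to 0.05 at the right end of I.

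**Figure D2:**
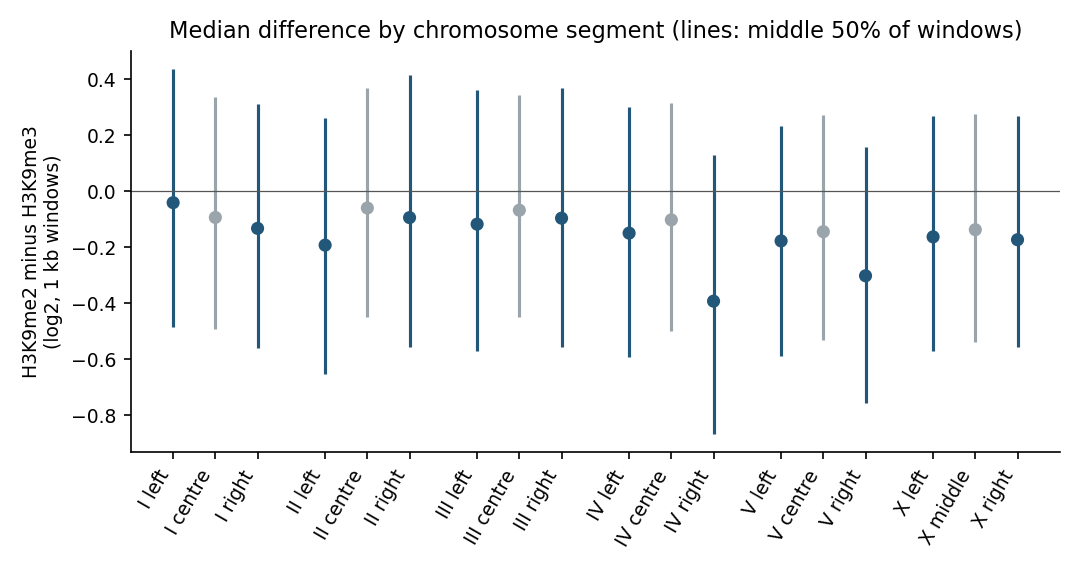
Median H3K9me2 minus H3K9me3 difference (points, log2) in 1 kb windows of each autosomal arm and centre and each of 3 parts of X, with lines spanning the middle 50% of windows. Arms and the outer parts of X are blue, centres grey, and the right arms of IV (-0.39) and V (-0.30) are the lowest while I left arm (-0.04) is the highest.

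The profile in bins of about 500 kb, a width chosen after seeing the data, showed that the H3K9me3 lean was concentrated in a few places. Of 201 bins, 128 were above 0 and 73 below, a split that moved to 179 and 22 under TMM scaling, so the bins are read against their own median of 0.03. A further 2 short bins at chromosome ends were left out, 1 of which, at the right end of I with 73 windows, stood at 0.35. The lowest bin, V 16999011-17499006, stood at -0.79 with 119210 H3K9me2 reads and 246111 H3K9me3 reads. Next came X 1499812-1999806 at -0.62 and II 1499425-1999419 at -0.61, each an isolated bin whose neighbours lay between -0.10 and 0.02. The fourth, IV 15998976-16498970 at -0.49, belonged instead to a series of low bins along the right arm of IV. Of the 10 lowest bins, 5 were on IV, 3 on V and 1 on X. The highest of the 201 bins reached 0.32 at II 11499332-11999326 and 0.27 at I 2499978-2999973. The lowest bin thus lay -0.82 from the median bin and the highest 0.29.

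The MNase controls moved with this profile in part. Across bins the difference correlated with the WT control level at a Spearman rho of 0.496 and with the *met-2* minus WT difference of the controls at -0.540 (n = 201, a description, since all libraries share cutting preference and mappability). Among the lowest bins, the V bin at -0.79 had a *met-2* minus WT control difference of 0.02 and the X bin one of 0.06. The II bin had 0.17 and the IV bin 0.23. In the decile of 1 kb windows with the lowest difference between the marks, the median control difference was 0.59. The part of the controls in this profile was not tested.

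**Figure D3:**
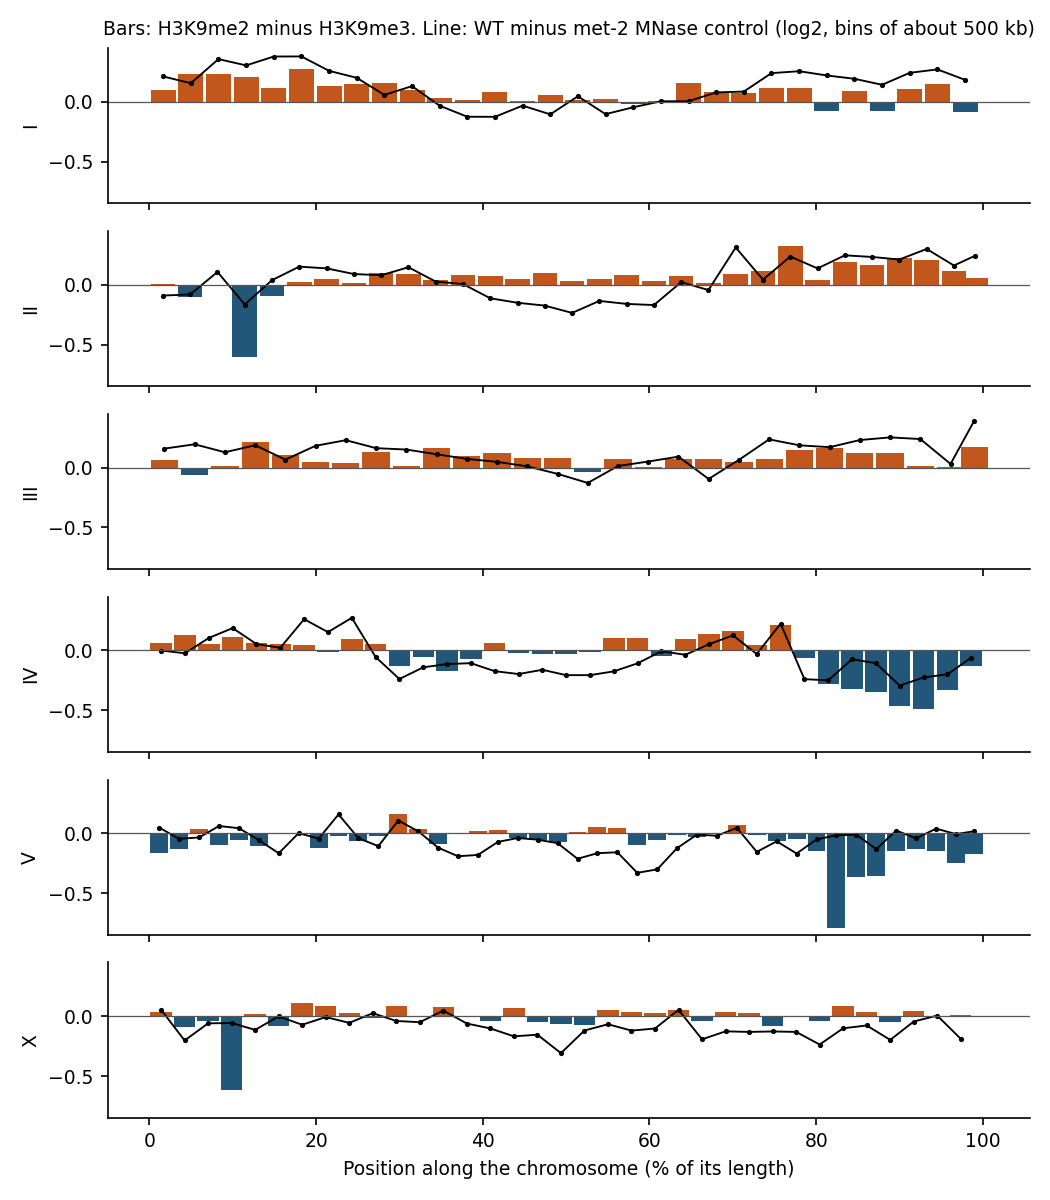
H3K9me2 minus H3K9me3 (bars, log2 of pooled reads in bins of about 500 kb, orange above 0 and blue below) and WT minus *met-2* MNase control (black line, same scale) against position in % of chromosome length, 1 panel per chromosome. Deep blue bars stand on V right arm (-0.79), near the left ends of X (-0.62) and II (-0.61) and along the right arm of IV (down to -0.49). The line is close to 0 at the V and X bars and below 0 at the II and lowest IV bars.

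At a finer scale, the difference of neighbouring windows was only weakly alike. Adjacent 1 kb windows correlated at r = 0.226 and adjacent 10 kb windows at 0.257. At a distance of 50 windows r was 0.034 and 0.079. The H3K9me3 level alone was more even along the chromosome (r = 0.397 between adjacent 1 kb windows) than the H3K9me2 level (0.290). Inside the 844 windows of 10 kb on the H3K9me3 side, a median of 90% of the 1 kb windows were below 0, and in 262 of the 844 all were. Inside the 783 windows on the H3K9me2 side, a median of 70% were above 0, and in 24 all were, beside 40.8% of all 1 kb windows above 0. The contrast between the sides depends on the zero point. The median of all 1 kb windows was -0.15 at this scaling and -0.029 under TMM scaling, and these shares are given at the reported scaling only.

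Runs of neighbouring 10 kb windows on 1 side, among windows averaging at least 20 scaled reads per kb, were longer for H3K9me3. The H3K9me3 side formed 573 runs, of which 454 were single windows and 49 had 3 or more, and the longest had 15. The H3K9me2 side formed 683 runs, of which 602 were single windows and 8 had 3 or more, and the longest had 7. The counts depended on the scaling, since TMM scaling gave 27 runs of 3 or more for H3K9me3 and 37 for H3K9me2, with longest runs of 9 and 8. The placement was steadier. Of the H3K9me3 runs of 2 or more windows, 50 were on IV, 35 on V, 14 on II, 7 each on III and X and 6 on I, and under TMM scaling IV and V held 57 of 75. The H3K9me2 runs of 2 or more were most frequent on I to III, with 20 on I, 19 on II, 15 on III, 10 on IV, 12 on V and 5 on X. Of all 1 kb windows, I held 15.1%, II 15.3%, III 13.8%, IV 17.4%, V 20.7% and X 17.7%.

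At the reported scaling and threshold, the longest H3K9me3 runs spanned 100 kb or more, and nearly every 1 kb window in them leaned the same way. The same reads chose the runs, and 10 kb windows on this side had a median of 90% of 1 kb windows below 0. Under TMM scaling the longest H3K9me3 run had 9 windows of 10 kb, and at a threshold of 1 it had 6. Of the runs as reported, the first, V 16969012-17119009, held 33455 H3K9me2 reads and 73914 H3K9me3 reads. It had a mean difference of -0.89, and 138 of its 150 windows of 1 kb were below 0. The second, II 1819422-1959420, held 33308 and 72769 reads, had a mean of -0.89, and 132 of 140 windows were below 0. The third, V 17549006-17649004, held 19089 and 45551 reads, had a mean of -1.01, and 98 of 100 windows were below 0. In these runs the scaled H3K9me2 reads were 54.1%, 54.7% and 50.1% of the scaled H3K9me3 reads.

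The H3K9me2 side had shorter stretches. I 2599977-2669976, in the left arm, spanned 7 windows of 10 kb with 23588 H3K9me2 and 16178 H3K9me3 reads and a mean of 0.76. Its windows were mixed, with 48 of 70 above 0 and 22 below. V 19008993-19038991, with 15309 and 9309 reads and a mean of 0.97, was more uniform, with 28 of 30 windows above 0. IV 1939106-1969105, with 11857 and 7225 reads, had a mean of 0.96 and 27 of 30 windows above 0. Both of these lay on chromosomes whose right arms leaned to H3K9me3, and the former within V right arm itself.

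Of the 6 most extreme 10 kb windows on the H3K9me3 side, 4 came from a single domain on X. In X 1779809-1789808 there were 1346 H3K9me2 and 5767 H3K9me3 reads, a difference of -1.83, with the interval of the log2 read ratio from -1.93 to -1.76. The scaled reads of the other libraries in this window were 1067 (WT control), 1392 (*met-2* control), 807 (WT H3K27ac) and 893 (*met-2* H3K27ac), beside 958 for H3K9me2 and 3433 for H3K9me3. H3K9me3 thus exceeded every other library, and H3K9me2 was below both controls. The neighbours X 1769810-1779808 (-1.71), X 1759810-1769809 (-1.49) and X 1789809-1799808 (-1.47) were also among the 6 lowest, and in each of the 4 windows 10 of 10 windows of 1 kb were below 0. The remaining members of the lowest 6 were II 1929421-1939420, with 1408 and 4905 reads (-1.54), and V 16989011-16999010, with 1111 and 3623 reads (-1.44), both inside the long runs above.

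The X windows belonged to a run of 9 windows, X 1739810-1829808, described here after its values were seen. It held 14774 H3K9me2 and 45913 H3K9me3 reads, the scaled H3K9me2 reads being 38.5% of the H3K9me3 reads, and 85 of 88 windows of 1 kb were below 0. The H3K9me3 level in the run had a median of 343 scaled reads per kb, against 227 in the 22 flanking windows of 10 kb. The H3K9me2 level was 128 against 156, WT H3K27ac 83.4 against 95.3, the WT control 136 against 140 and the *met-2* control 139 against 158. Among these medians only that of H3K9me3 was higher in the run. The same reads chose the run, so more H3K9me3 than H3K9me2 in it follows from the choice. The rise did not span the whole run. In X 1739810-1749809 and X 1749810-1759809 H3K9me3 stood at 153 and 74.5, below the median of the flanks, and the highest flanking window reached 390. The flanks themselves leaned the same way, with a median difference of -0.63, ranging from -1.17 to 0.12.

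**Figure D4:**
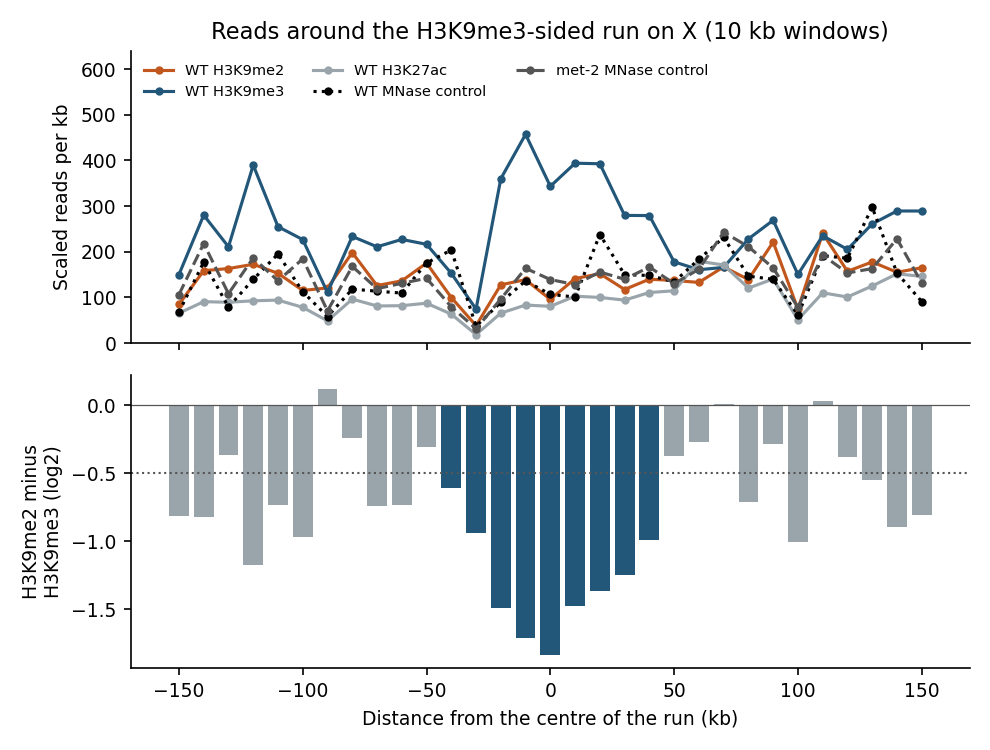
Scaled reads per kb of 5 libraries (upper panel) and the H3K9me2 minus H3K9me3 difference (lower panel, log2; run in blue, flanks in grey, dotted line at -0.5) in 10 kb windows by distance in kb from the centre of the run on X. H3K9me3 reaches 457 inside the run while H3K9me2 stays at or below 152, and the difference falls to -1.83.

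The extremes on the H3K9me2 side were scattered and partly thin. The 3 highest 10 kb windows, II 14299306-14309305 (2.19), II 14709302-14719301 (2.13) and I 4339961-4349960 (1.93), had reads in only 4, 5 and 3 of their 1 kb windows and held 1729, 1327 and 1501 H3K9me2 reads against 444, 352 and 460 H3K9me3 reads. The next were filled. I 2619977-2629976, inside the run on I, had 5642 and 2462 reads and a difference of 1.45, with 9 of 10 windows of 1 kb above 0. I 11389896-11399895 had 3674 and 1627 reads and a difference of 1.43, and 10 of 10 of its windows were above 0, from 0.58 to 2.14. II 11209335-11219334 had 2816 and 1247 reads and a difference of 1.42, with 9 of 10 above 0.

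At 1 kb the highest windows on the H3K9me2 side stood far above their neighbours. The highest, V 16801013-16802012, had 3651 H3K9me2 reads and 170 H3K9me3 reads, 25.7 times as many after scaling, and a difference of 4.58. Its scaled H3K9me2 level of 2599 stood beside an H3K9me3 level of 101, a WT H3K27ac level of 121 and control levels of 186 (WT) and 418 (*met-2*). Both neighbouring windows were below 0, so the peak was confined to 1 window, and it lay less than 200 kb from the longest H3K9me3 run. The next were I 14804864-14805863 with 2974 and 261 reads (3.70), X 6163769-6164768 with 1253 and 105 (3.67), V 11482063-11483061 with 1069 and 96 (3.56) and IV 3847089-3848088 with 1637 and 157 (3.53). Both neighbours of this IV window were below 0. Those of the X window (0.18 and 0.94) and of this second V window (0.43 and 1.15) were above 0, and those of the I window stood at -0.29 and 0.93. The lowest 1 kb windows were I 1190990-1191989 with 12 and 220 reads (-3.07), IV 2949097-2950096 with 15 and 246 (-3.05), and, inside the X run, X 1781809-1782808 with 61 and 681 (-3.01), X 1774809-1775808 with 96 and 950 (-2.91) and X 1775809-1776808 with 57 and 585 (-2.87). In the windows on I and IV, H3K9me3 was at 131 and 146 scaled reads, near its genome median of 157, and H3K9me2 was nearly absent, whereas in the X run H3K9me3 reached 348 to 566. The window on I also had 3 reads in the WT control, beside 16 in that of *met-2*.

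The windows with the most reads overall were not of 1 kind. The 10 deepest by the sum of both marks, chosen after seeing the data, had a median difference of 0.03, and 4 of them were neighbours at the right end of I, with differences of 0.35, 0.02, 0.61 and 0.78. The deepest held 86540 H3K9me2 and 81077 H3K9me3 reads. Of the 100 deepest, 89 were above 0, and of the 1000 deepest, 880. The same reads chose these windows and gave the difference, and H3K9me2 was the more uneven library. Chosen by libraries outside the difference, the 1000 windows with the most reads had a median of -0.17 (WT H3K27ac), -0.29 (*met-2* H3K27ac), 0.12 (WT control) and -0.07 (*met-2* control).

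The difference was then described by the level of the other libraries, to ask whether active or easily cut chromatin leaned to 1 of the marks. By deciles of WT H3K27ac, found at active promoters and enhancers, the median difference rose from -0.26 in the lowest decile to -0.12 in the highest, and it was between -0.13 and -0.12 from the fifth decile on. This relation had no stable direction. Top minus bottom decile was 0.14, but -0.01 without the extreme deciles of WT control reads and -0.16 within deciles of WT control reads. By deciles of *met-2* H3K27ac it went from -0.16 to -0.21. The relation with the WT control was wider, from -0.46 in the lowest decile, where 47.8% of windows were on the H3K9me3 side, to 0.10 in the highest, where 27.6% were on the H3K9me2 side. With the *met-2* control it went from -0.23 to -0.10.

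Each mark resembled a different control. Across 1 kb windows H3K9me2 correlated with the WT control at a Spearman rho of 0.514 and with the *met-2* control at 0.450, whereas H3K9me3 did so at 0.391 and 0.539. At 10 kb the values were 0.544 and 0.495 for H3K9me2 and 0.339 and 0.603 for H3K9me3. The difference itself correlated with the WT minus *met-2* difference of the controls at 0.196 at 1 kb and 0.296 at 10 kb, and in each of the 6 chromosomes at 10 kb, from 0.220 on X to 0.380 on IV. The mitochondrial share of the reads paired the libraries the same way, with 0.590% (H3K9me2) near 0.569% (WT control) and 1.13% (H3K9me3) near 1.27% (*met-2* control). Whether the libraries were prepared in different batches is not given in the sources used here, so a batch and the mark cannot be told apart in any H3K9me2 minus H3K9me3 value. These are descriptions across windows of 1 library each. The controls had no antibody, and their part in the difference between the marks was not tested.

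Windows that leaned to H3K9me3 in WT had relatively more H3K27ac reads in *met-2*. The *met-2* minus WT difference in H3K27ac had a median of 0.17 in the decile of windows with the lowest H3K9me2 minus H3K9me3 difference and fell with each decile to -0.06 in the highest. Top minus bottom was -0.23 ± 0.01, and it had the same sign on each of the 6 chromosomes, from -0.16 on X to -0.29 on IV. H3K27ac was higher in *met-2* by over 0.5 in 18.0% of windows in the lowest decile and in 3.70% in the highest. The MNase controls, however, moved the same way and further, from 0.59 in the lowest decile to -0.20 in the highest, a top minus bottom of -0.79 ± 0.04. Within deciles of WT control reads the H3K27ac value was -0.17, and within deciles of the control difference -0.21, below 0 in 10 of 10 deciles of either kind. The part of the controls in it was otherwise not tested.

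**Figure D5:**
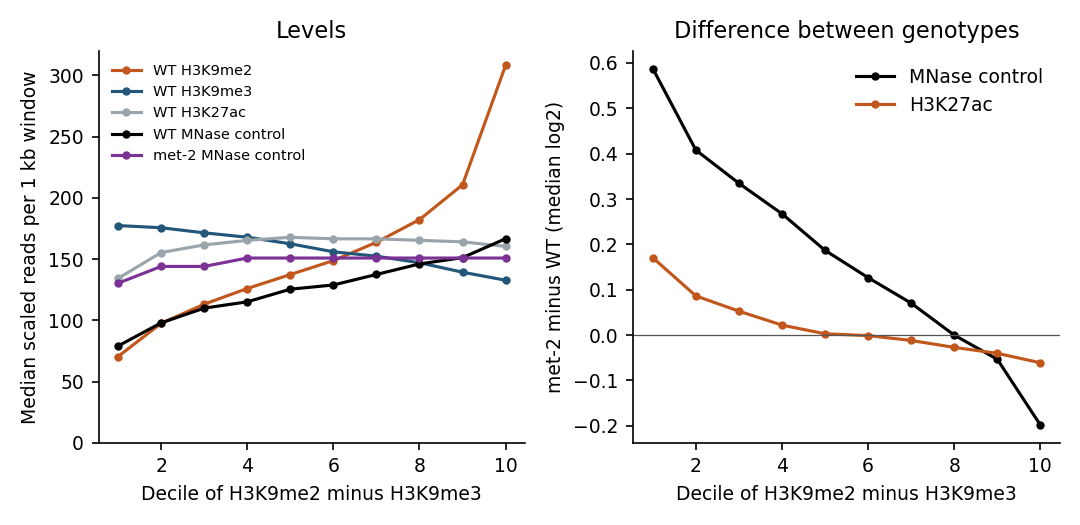
Left, median scaled reads per 1 kb window of 5 libraries by decile of the H3K9me2 minus H3K9me3 difference, which is computed from the first 2. Right, median *met-2* minus WT difference (log2) of H3K27ac, from 0.17 to -0.06, and of the MNase controls, from 0.59 to -0.20, in the same deciles.

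The 10 kb windows on either side also differed in H3K27ac and control reads, which had not chosen them. The H3K9me2 and H3K9me3 levels given beside these follow from the choice itself. The 844 windows on the H3K9me3 side had median scaled levels per kb of 114 (H3K9me2), 180 (H3K9me3), 115 (WT H3K27ac) and 115 (WT control). Of these 844, 635 (75.2%) lay in autosomal arms, which held 5119 of all 10013 windows of 10 kb (51.0% of 1 kb windows). The 783 on the H3K9me2 side had medians of 238, 146, 172 and 184, and 449 (57.3%) lay in arms. The 8386 windows on neither side had medians of 163, 165, 177 and 159, and 48.1% lay in arms. H3K27ac and the WT control were thus both lowest on the H3K9me3 side. These medians were not split by control level, and over all 1 kb windows the H3K27ac relation reversed within deciles of the WT control, as given above. The *met-2* minus WT control difference was 0.29 on the H3K9me3 side, -0.23 on the H3K9me2 side and 0.04 elsewhere.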

How the data were processed

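The deposited values are raw read counts per window of about 1 kb of the ce10 genome, 1 column per library, and groups come from the sample titles. To make them, the authors used Trimmomatic (0.39) for trimming, bowtie2 for alignment, Bismark for deduplication and QuasR for counting, and they describe a narrower tiling than the table has. Handling of reads with several matches is not given in the sources used here, so counts over repeats are uncertain, and removal of duplicates can lower the deepest windows.

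Counts were divided by the library total, multiplied by the average total, and log2 was taken after adding 8. Arms and centres follow the borders of the study's methods. The border stated for X lies beyond its end, so X was cut in 3 equal parts. Python 3.11.15 (pandas 2.3.3, scipy 1.17.1) and, for TMM factors, edgeR 4.0.16 in R 4.3.3 were used, and scripts were tested on simulated data. Named regions are the 6 highest and 6 lowest 10 kb windows, the 5 highest and 5 lowest 1 kb windows and the 3 longest runs on either side, at 20 or more scaled reads per kb. Regions, measures and lists were chosen with earlier results of these data known. Splits by deciles of control reads, bins of 500 kb, the deepest windows and runs under other settings were chosen after seeing the data. Intervals of read ratios and shares cover counting error only, at 95%, with reads taken as independent. A share of a library below 3 reads, 1.26e-05% for H3K9me2 and 1.05e-05% for H3K9me3, is not detectable. Alternatives were a pseudocount of 1, a minimum of 20 scaled reads, TMM scaling, totals without mitochondrial reads, H3K9me3 thinned to the H3K9me2 total, no extreme control deciles, a threshold of 1, 25% at either end as arms, and 10 kb sums.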

Additional observations from a re-analysis of the deposited data

Results flagged for a closer look

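Mitochondrial windows lay outside the comparison. They held 1.13% of the reads of the H3K9me3 library, above the 0.569% of the WT MNase control and below the 1.27% of the *met-2* control. The H3K9me2 library held 0.590%. On the scale of the comparison the mitochondrial genome stood at -0.94 for H3K9me2 minus H3K9me3. Totals without it moved the median of the nuclear windows to -0.16.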

How the results depend on the processing

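Of 88 alternative values over 14 results, 53 stayed within the error or count range of the reported value, 33 moved beyond it and 2 reversed. Some of the 53 could hardly have moved. The rank correlations do not depend on the pseudocount. TMM scaling and totals without mitochondrial reads shift nearly all windows alike, which leaves arm minus centre and X minus autosomes almost unchanged. The tally is therefore not a measure of robustness. The reversals were both in the difference between the top and bottom decile of WT H3K27ac, 0.14 as reported, which was -0.011 without the extreme deciles of WT control reads and -0.16 within such deciles. It was 0.22 with a pseudocount of 1, 0.17 with TMM scaling and 0.28 in 10 kb sums. By deciles of the WT control, top minus bottom was 0.56, and it was 0.67 with a pseudocount of 1, 0.58 with TMM, 0.42 without the extreme deciles and 0.42 in 10 kb sums. The median difference was -0.16 with a pseudocount of 1, -0.029 with TMM and -0.16 without mitochondrial reads in the totals. TMM gave 1352 and 452 windows of 10 kb on the H3K9me2 and H3K9me3 sides, and 37 and 27 runs of 3 or more. At a threshold of 1 the counts were 6028 and 8628 at 1 kb and 57 and 83 at 10 kb, with 0 and 3 such runs. The correlation of the marks was 0.507 at 20 or more scaled reads, and 0.430 (10 kb: 0.387) without the extreme deciles. Arm minus centre was -0.072 without the extreme deciles, -0.067 within control deciles and -0.061 in 10 kb sums, and X minus autosomes was -0.029 in 10 kb sums. The H3K27ac difference by deciles of the marks' difference was -0.25 with a pseudocount of 1, -0.19 without the extreme control deciles, -0.18 in 10 kb sums, -0.17 within WT control deciles, -0.21 within deciles of the control difference and -0.79 with the controls in place of H3K27ac. The cause of these shifts was not tested. No paired analysis was possible because no group holds more than 1 library. The *met-2* control, with a median of 21 reads per window, limits every value that rests on it.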
